A study of Caenorhabditis elegans with 2 samples.

Results

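The proneural basic helix-loop-helix (bHLH) genes and the E protein gene of Caenorhabditis elegans were examined in a map of CND-1 binding. The group was chosen by name and holds 9 genes, namely cnd-1, ngn-1, hlh-2, lin-32, hlh-3, hlh-4, hlh-6, hlh-13 and hlh-14, of 19973 nuclear protein-coding genes. DNA bound by CND-1 was recovered by chromatin immunoprecipitation and sequenced (ChIP-seq), from whole embryos of both sexes and mixed stage that were obtained by bleaching and labelled as 3 hours old. The worms were of strain OP349, with the genotype unc-119(ed3) III; wgIs349, and stably express CND-1 with GFP-FLAG fused to its C-terminus. The description names an antibody against GFP, while the antibody label reads cnd-1, and sonication gave fragments of 200 to 800 bp. The 2 samples are labelled as biological replicates of 1 group. No untagged or input sample was analysed here. The tagged protein comes from a transgene, and whole embryos were used, so cells with and without CND-1 were mixed.

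Proneural bHLH proteins switch on the neuronal programme in ectodermal precursors. They bind DNA as heterodimers with a broadly expressed E protein, and the dimer contacts the sequence CANNTG, the E-box. In many animals proneural factors act in cascades, in which one factor turns on the gene of another, and the question here is where CND-1 signal lay at the genes of its own family. CND-1 is the NeuroD homologue and acts in embryonic motor neuron specification. The gene ngn-1 encodes the neurogenin homologue, lin-32 the Atonal homologue that acts in touch neurons and male sensory rays, and hlh-2 the worm's E protein, the homologue of Daughterless. The genes hlh-3, hlh-4, hlh-6 and hlh-14 encode relatives of the Achaete-Scute proteins, and hlh-13 encodes a relative of mammalian Ptf1a.

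The authors deposited 4 lists of regions. The lists of replicate 1, replicate 2 and the pooled reads hold 30000 regions each, of peaks together with background, and the thresholded list holds 1964 peaks. Signal is the peak caller's own value for a region, without a stated scale, and was used only to rank nuclear regions within a list, with rank 1 the strongest. The 1940 nuclear peaks of the thresholded list were the 1940 nuclear regions of the pooled list with the highest signal, and the weakest of them had a signal of 103.07. Agreement between the replicates thinned out with rank. A summit lay within 100 bp in both replicate lists for 98.5% of pooled regions ranked 1 to 1000, for 85.5% of those ranked 2001 to 4000 and for 3.76% of those ranked 20001 to 30000. A summit was given to a gene when it lay between 3000 bp upstream of the gene start and the gene end. This window had a median length of 4518 bp in the 9 genes, against 5027 bp in all protein-coding genes.

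Stretches of genome under summits of 3 proneural genes are shown first. Those of ngn-1, lin-32 (in the intron) and hlh-14 are the summits of the group with the E-box CAGATG, and that of lin-32 upstream is shown as a region present in both replicates with no E-box. Each runs 5′ to 3′ on the strand of its gene, read from the RefSeq copy of the WBcel235 (ce11) assembly, with 75 bases on each side of the pooled summit, and the ngn-1 stretch stops at the annotated gene start. Capitals mark E-boxes, and CATCTG is CAGATG read on the other strand.
ngn-1, immediately upstream of the gene, chrIV:2628272-2628380, minus strand: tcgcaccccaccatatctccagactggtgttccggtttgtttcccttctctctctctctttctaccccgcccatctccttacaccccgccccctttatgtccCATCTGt
lin-32, in an intron, chrX:2229401-2229551, minus strand: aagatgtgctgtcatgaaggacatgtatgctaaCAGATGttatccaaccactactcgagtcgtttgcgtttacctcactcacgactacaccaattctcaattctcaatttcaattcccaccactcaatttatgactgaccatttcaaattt
lin-32, upstream, chrX:2231465-2231615, minus strand: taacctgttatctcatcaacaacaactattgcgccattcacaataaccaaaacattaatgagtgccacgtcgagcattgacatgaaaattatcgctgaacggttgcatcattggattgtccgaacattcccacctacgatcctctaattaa
hlh-14, upstream, chrII:5741427-5741577, minus strand: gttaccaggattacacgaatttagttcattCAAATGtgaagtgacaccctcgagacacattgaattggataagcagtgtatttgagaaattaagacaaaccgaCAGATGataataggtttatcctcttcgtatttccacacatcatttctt

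Of the 9 genes, hlh-2 alone had a summit of the thresholded list in its window, while 11.0% of all protein-coding genes had one. In the pooled list 8 of the 9 genes had a summit, against 70.1% of all genes. Replicate 1 gave a summit in 5 of the 9 genes, against 73.0% of all genes, and replicate 2 gave one in 8 of the 9, against 71.5%. The genes with a summit in replicate 2 but none in replicate 1 were hlh-4, hlh-6 and hlh-13. Summits of both replicates within 100 bp of each other were present in 3 of the 9 genes, namely ngn-1, hlh-2 and lin-32, against 42.0% of all genes. No test was made of the group against other genes.

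**Figure D1:**
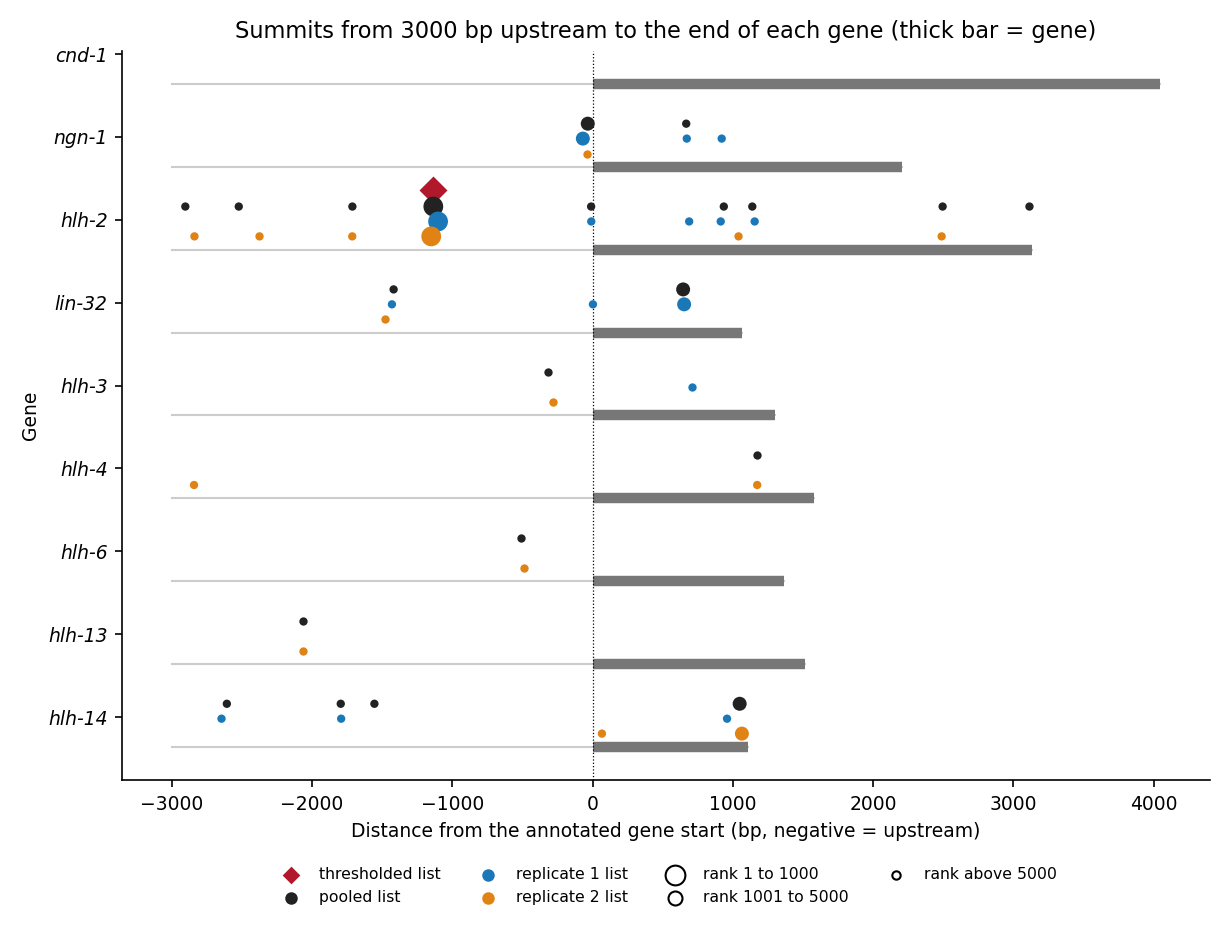
Position of every summit (dots, and a diamond for the thresholded list) in the windows of the 9 genes, with distance from the annotated gene start in bp on the x axis and 1 gene per row. Dot size gives the signal rank within the list. A summit in the same place in all 4 lists is seen at hlh-2, 1135 bp upstream in the pooled list, and cnd-1 has no summit at all.

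The E protein gene hlh-2 carried the strongest site of the group. It lies at I:7190788-7193920 on the minus strand (WBGene00001949), and its peak (I:7194857-7195252) was in intergenic sequence with the summit 1135 bp upstream of the gene start. The signal was 174.5 in the pooled list, 84.3 in replicate 1 and 92.4 in replicate 2, at ranks 727, 741 and 738. The summits of the replicates lay 34 and 15 bp from the pooled one, so the replicates gave the site the same place and nearly the same rank. The authors' −log10 q-value was 3.46 in the pooled list, 3.39 in replicate 1 and 2.71 in replicate 2. The highest values in these lists were 3.46, 3.39 and 3.1, so the first 2 are at the ceiling and do not grade the site. A summit with a better pooled rank was present in the windows of 944 other protein-coding genes, or 4.73% of all genes. No other protein-coding gene's window contained the hlh-2 peak.

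The window of hlh-2 also held more pooled regions per kb than that of almost any other gene. It had 9 summits of the pooled list, a number reached by 2.05% of protein-coding genes, and its 1.47 summits per kb exceeded the value of 99.9% of genes. The median was 0.23 per kb in the 9 genes and 0.25 per kb in all protein-coding genes. Replicate 1 had 5 summits in this window and replicate 2 had 6. Apart from the peak, the other 8 pooled summits had ranks from 5512 to 28258. Of these 8, the summit 1139 bp inside the gene, in an intron, had a summit within 100 bp in both replicates, at rank 5417 in replicate 1 and 6853 in replicate 2, although the replicate summits lay 115 bp from each other. Upstream, the regions at 1712 and 2903 bp were matched in replicate 2 alone, at ranks 9458 and 7726. Inside the gene, a region in a coding exon 936 bp from the start was matched in replicate 1 at rank 9562, and an intronic one at 2496 bp in replicate 2 at rank 11779. The regions at 1139 and 936 bp overlap. The region 3115 bp inside the gene, in the 3′ untranslated region at pooled rank 28258, was nearest to a transcript start of plag-15, 2340 bp away, and had no match within 100 bp in either replicate. The region 2522 bp upstream, at pooled rank 22362, had no such match either. Among all pooled regions, 28.3% of those ranked 10001 to 20000 were matched in both replicates. A summit 10 bp upstream of the gene start (pooled rank 18187) was matched in replicate 1 at rank 12042, and the nearest summit of replicate 2 was 1051 bp away.

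**Figure D2:**
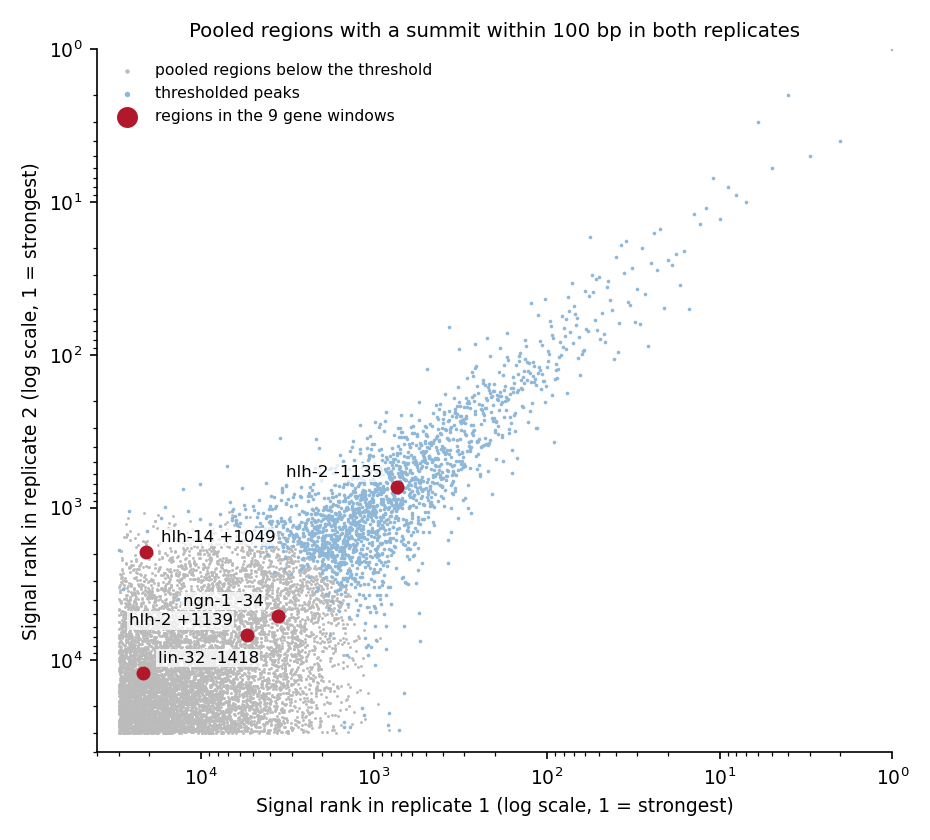
Signal rank in replicate 1 (x axis) and replicate 2 (y axis), both on log scales with the strongest at the upper right, for pooled regions with a summit within 100 bp in both replicates. Grey points lie below the threshold, blue points are thresholded peaks, and the 5 labelled red points are the regions in the 9 gene windows, named by gene and distance of the pooled summit from the gene start in bp. The hlh-2 peak sits at ranks 741 and 738, and the hlh-14 region at 20742 and 1955.

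The neurogenin gene ngn-1 had a site at its start that was seen in both replicates but fell below the threshold. The gene lies at IV:2626062-2628271 on the minus strand (WBGene00003595). The pooled summit was 34 bp upstream of the start, with a signal of 93.6 and rank 2367. The replicate summits lay 69 bp upstream in replicate 1 (signal 41.8, rank 3591) and 36 bp upstream in replicate 2 (signal 38.5, rank 5126). Both replicates thus placed it within 35 bp of the pooled summit. A better pooled rank was found in the windows of 2600 genes, or 13.0% of all genes. As the printed stretch shows, a CAGATG lay 30 bp from the pooled summit, with its last base 2 bp upstream of the annotated gene start. A weaker region in an intron, 668 bp inside the gene, ranked 19796 in the pooled list and 16031 in replicate 1, and the nearest summit of replicate 2 was 704 bp away. Replicate 1 had a further intronic summit 921 bp inside the gene, at rank 15126.

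At the Atonal homologue lin-32 the stronger region was seen in 1 replicate and the weaker one in both. The gene lies at X:2229055-2230122 on the minus strand (WBGene00003018). The stronger region lay in an intron, 646 bp inside the gene, with a pooled signal of 79.7 and rank 3393. Replicate 1 had its summit 7 bp from there, with a signal of 47.9 and rank 2504, and the nearest summit of replicate 2 was 2127 bp away. Among pooled regions ranked 2001 to 4000, 14.2% were likewise matched in 1 replicate alone. This stretch holds a CAGATG 39 bp from the summit. The weaker region lay 1418 bp upstream, with a pooled signal of 50.8 and rank 11283, a signal of 21.3 and rank 21746 in replicate 1, and a signal of 28.3 and rank 12084 in replicate 2. It has no E-box in the printed stretch, and it also falls in the window of T14F9.2, a neighbouring gene. Replicate 1 had a further summit 3 bp inside the gene, in the 5′ untranslated region, at rank 24015.

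Of the Achaete-Scute relatives, hlh-14 came closest to the threshold and the replicates ranked it very differently. The gene, which acts in the division and neuronal fate of asymmetrically dividing neuroblasts, lies at II:5737785-5738895 on the minus strand (WBGene00001958). Its strongest pooled summit was in the 3′ untranslated region, 1049 bp inside the gene, with a signal of 100.4 and rank 2043, which is 103 places below the last thresholded nuclear peak. The signal there was 56.5 in replicate 2, at rank 1955, and 21.8 in replicate 1, at rank 20742. The 2 replicate summits were 106 bp apart, just over the 100 bp limit, so the region was not counted as shared. Around its summit no E-box occurred within 100 bp, and the nearest, a CAAATG, was 134 bp away. Upstream of hlh-14 the pooled list had 3 more summits, 1555, 1795 and 2607 bp from the start, at ranks 28306, 16245 and 20405. The first of them lay inside an annotated non-coding RNA gene. The last of them has a CAGATG and a CAAATG in the printed stretch and was matched in replicate 1 at rank 9948. None of the 3 had a summit of replicate 2 within 100 bp. Replicate 2 had a summit of its own in the 5′ untranslated region, 67 bp inside the gene, at rank 13885.

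The remaining Achaete-Scute relatives had 1 pooled summit each, all near the bottom of the list. At hlh-3 (II:9086608-9087908, plus strand, WBGene00001950), which acts in the differentiation of the egg-laying HSN motor neurons, the pooled summit lay 315 bp upstream with a signal of 31.9, rank 29723 of 29976 nuclear regions. Replicate 2 had a summit 32 bp from it at rank 26806, while the 1 summit of replicate 1 lay in a coding exon 712 bp inside the gene, at rank 24157. At hlh-4 (III:9737472-9739054, minus strand, WBGene00001951), a regulator of the chemosensory neuron ADL, the summit lay in a coding exon 1174 bp inside the gene, with a pooled signal of 35.1 at rank 25419 and a replicate 2 rank of 24423. The same summit falls in the window of dao-6. A second summit of replicate 2, 2841 bp upstream at rank 24593, lay inside T05G5.1, and the next protein-coding gene upstream of hlh-4 is 39 bp away. At hlh-6 (II:9613463-9614828, minus strand, WBGene00001952), a regulator of pharyngeal gland genes, the summit lay 508 bp upstream with a pooled signal of 32.3, at rank 29207 and a replicate 2 rank of 21272. Replicate 1 had no summit in the windows of hlh-4 and hlh-6.

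The Ptf1a relative hlh-13 had a weak region that lay at another gene's start. The gene is at X:4249249-4250766 on the plus strand (WBGene00001957). Its 1 pooled summit, 2062 bp upstream, had a signal of 40.8 and rank 18858, and replicate 2 had the same summit at rank 10999. A transcript start of the gene F48D6.4 was 2 bp from that summit. The nearest summit of replicate 1 was 2936 bp away. The hlh-13 window had the most E-boxes per kb of the group, at 6.42, above the value of 94.9% of genes.

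**Figure D3:**
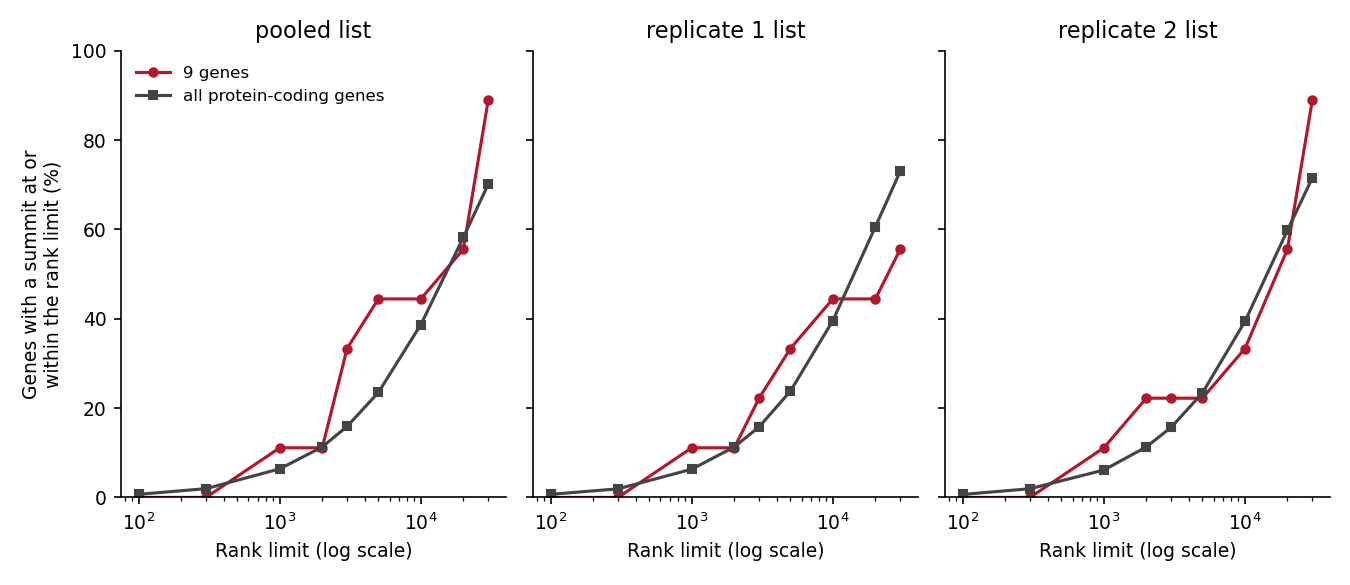
Percent of genes (y axis) whose window holds a summit at or within a given signal rank (x axis, log scale) in the pooled list and each replicate list, for the 9 genes (red circles) and all protein-coding genes (dark squares). At a limit of rank 5000 the pooled list gives 4 of the 9 genes against 23.5% of all genes, replicate 1 gives 3 against 23.8%, and replicate 2 gives 2 against 23.4%. At other limits the pooled list gives 1 of the 9 against 11.3% (rank 2000), 4 against 38.7% (rank 10000) and 5 against 58.2% (rank 20000).

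Ranked by their best pooled region, the genes thus followed the order hlh-2, hlh-14, ngn-1, lin-32, hlh-13, hlh-4, hlh-6 and hlh-3, with ranks of 727, 2043, 2367, 3393, 18858, 25419, 29207 and 29723. The order behind hlh-2 was not stable between replicates. In replicate 1 it was lin-32 (rank 2504), ngn-1 (rank 3591), hlh-14 (rank 9948) and hlh-3 (rank 24157). In replicate 2 it was hlh-14 (rank 1955), ngn-1 (rank 5126), hlh-13 (rank 10999), lin-32 (rank 12084), hlh-6 (rank 21272), hlh-4 (rank 24423) and hlh-3 (rank 26806). The median best rank of the 8 genes with a pooled summit was 11125, against 8622 for all genes with one. Of the 15 summits of replicate 1 in the 9 windows, 3 had a summit of replicate 2 within 100 bp, against 35.2% of all nuclear regions of replicate 1.

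The cnd-1 gene itself had no region in its window in any list, a state shared by 16.9% of protein-coding genes. It lies at III:5240591-5244639 on the minus strand (WBGene00000561), with a window of 7049 bp. The closest summits upstream were 26.5 kb away in the pooled list, 28.0 kb in replicate 1 and 26.5 kb in replicate 2. Downstream they were 29.2 kb away in the pooled list, 18.1 kb in replicate 1 and 29.0 kb in replicate 2. The gap between summits around the gene spanned 59.8 kb in the pooled list, 50.2 kb in replicate 1 and 59.6 kb in replicate 2, and 48.7 kb with all 4 lists together.

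Few gaps in the lists were as long. The one around cnd-1 was the 28th longest of 83130 between neighbouring summits of all 4 lists, whose median was 269 bp, and the second longest on its chromosome. Of the 28 longest, 19 were on chromosome IV, 6 on V, 2 on III and 1 on I. The gap around cnd-1 holds 17 protein-coding genes, cnd-1 included. The 28 gaps together held the whole windows of 291 protein-coding genes, or 1.46% of all. The GC content of the gap around cnd-1 was 35.0%, against 35.7% for the chromosome. The lists are thus empty at cnd-1 and at its neighbours alike, and whether CND-1 bound its own gene cannot be read from these lists.

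**Figure D4:**
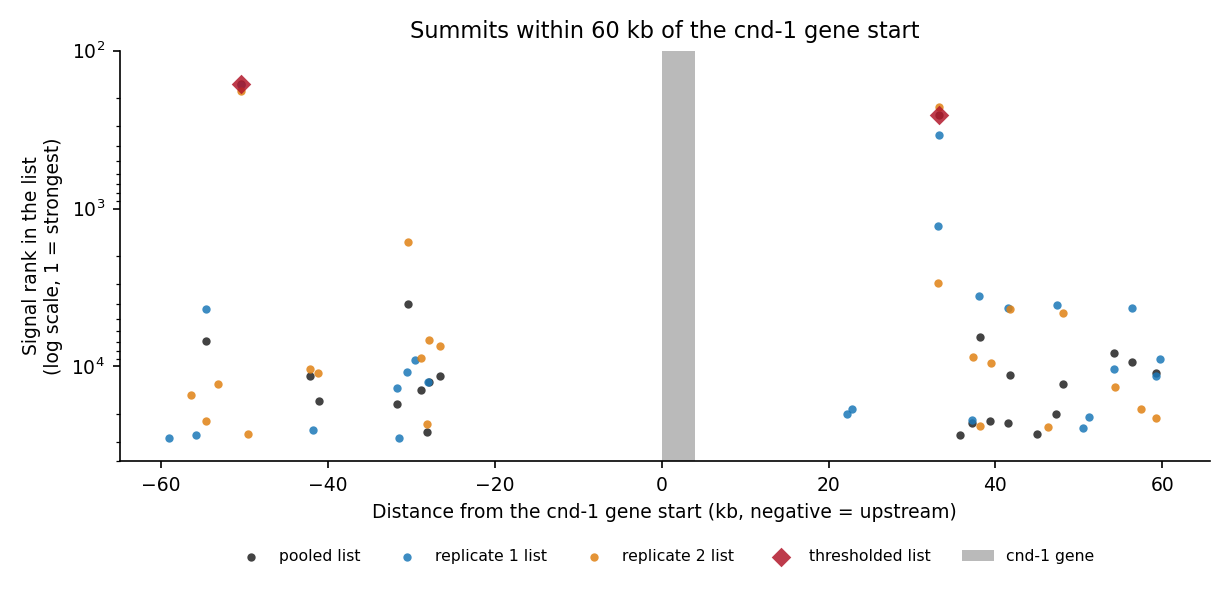
Summits within 60 kb of the cnd-1 gene start, with distance in kb on the x axis (negative is upstream) and signal rank within each list on the y axis (log scale, strongest at the top). The grey band is the gene. No list has a summit between 26.5 kb upstream of the gene start and 18.1 kb past the gene end, and the thresholded peaks nearest to the gene have ranks 162 and 255.

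E-boxes were about as dense in the windows of the 9 genes as in those of other genes. The windows held 207 E-boxes, with a median of 4.81 per kb in the 9 genes against 4.3 per kb in all protein-coding genes. CAGATG, on either strand, occurred 19 times, in 8 of the 9 genes with hlh-3 as the exception, and in 89.6% of all genes. Its median density was 0.44 per kb in the 9 genes and 0.45 per kb in all genes. CAGCTG was present in 6 of the 9 genes and in 67.5% of all genes. The window of cnd-1 held 34 E-boxes, 4 of them CAGATG and 2 CAGCTG.

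E-boxes lay under some of the weaker regions and not under the strongest one, at hlh-2. An E-box was present within the 100 bp centred on the summit in 12 of the 21 pooled summits of the group (57.1%, 95% exact Clopper-Pearson interval 34.0 to 78.2), against 38.7% of all pooled regions. In windows centred 300 bp to the left it was present in 7 of the 21, against 32.8% of all pooled regions. The list of replicate 1 gave 5 of 15 summits (33.3%), against 37.7% of all its regions. Its flanks gave 5 of 15 as well, against 32.6% for all its regions. The list of replicate 2 gave 7 of 15 (46.7%), against 38.7% of all its regions. Its flanks gave 9 of 15, against 33.4% for all its regions. The mean of the replicates was 40.0% ± 9.43 (SD, n = 2). In neither replicate were E-boxes more frequent at the summits of the group than in the flanks. These counts rest on 15 summits each, the flank was taken to the left alone, and the difference was not tested. CAGATG was present at none of the flanks of the 21 pooled summits. Its flank share over all pooled regions was not counted, so this count has no background beside it. At the summits themselves, CAGATG was present at 3 of the 21 (14.3%, interval 3.05 to 36.3). Of all pooled regions 6.86% had one. The share was 22.8% at ranks 1 to 1000, 7.8% at ranks 2001 to 4000 and 5.63% at ranks 20001 to 30000. The 3 are the ngn-1 start, the lin-32 intron and the hlh-14 upstream region printed above, at pooled ranks 2367, 3393 and 20405. Among the replicates' own summits, CAGATG was present only at the lin-32 intron in replicate 1 and the ngn-1 start in replicate 2. Summits of 1 gene share their surroundings, and the intervals cover counting error only.

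The hlh-2 peak had no E-box in the whole 396 bp of its region. The nearest was a CAGATG 461 bp from the summit, and the nearest CAGCTG was 540 bp away. Among pooled regions of ranks 1 to 1000, to which the hlh-2 peak belongs, 54.7% had an E-box in the 100 bp around the summit. The absence of these letters says nothing on whether CND-1 binds there with or without a partner protein.

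**Figure D5:**
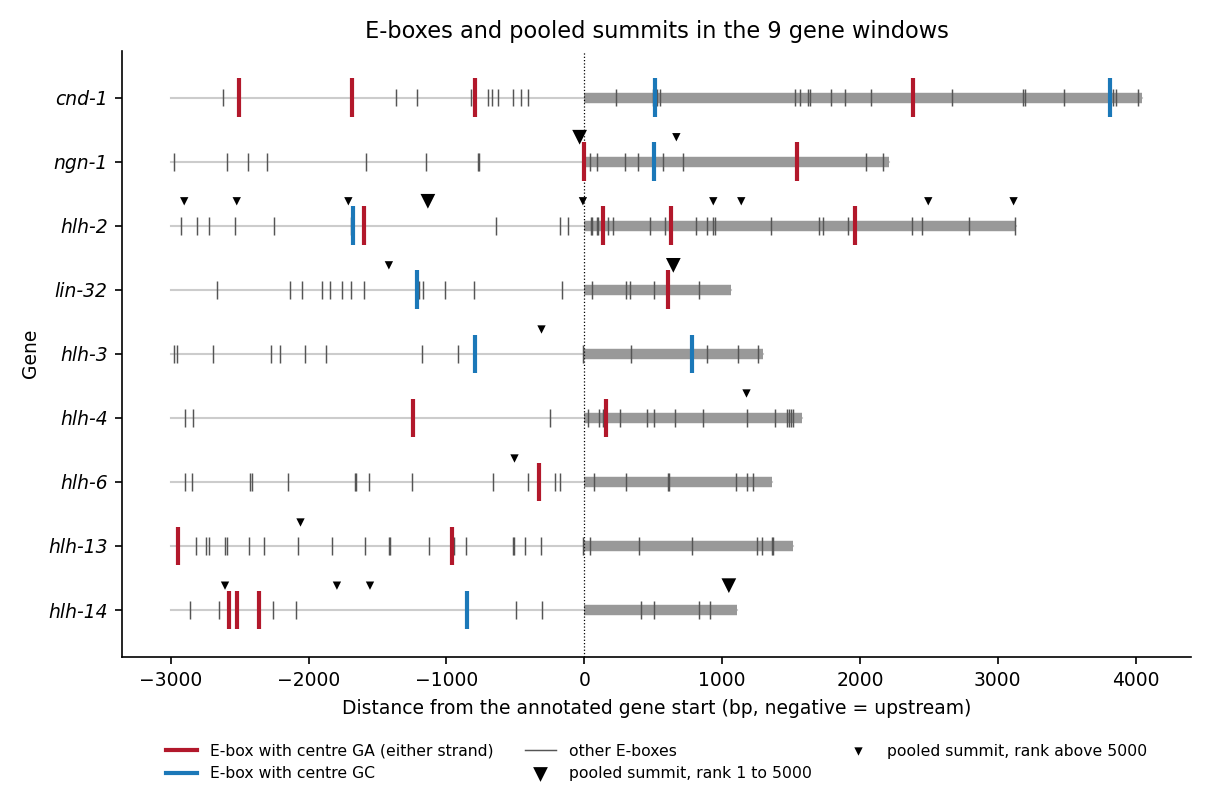
E-boxes (vertical ticks) and pooled summits (triangles) in the windows of the 9 genes by distance from the gene start in bp. Red ticks are CAGATG, blue ticks CAGCTG and thin ticks the other E-boxes, and large triangles mark ranks 1 to 5000. The large triangles at ngn-1 and lin-32 stand within 40 bp of a red tick, and that of hlh-2 stands 461 bp from the nearest one. That of hlh-14 stands 1049 bp inside the gene, while the red ticks of hlh-14 lie 2359 to 2576 bp upstream. The CAGATG nearest to that hlh-14 summit, 411 bp away, lies outside the window and is not drawn.

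The same window was applied to the other bHLH genes and to the Notch pathway, which restrains proneural genes in neighbouring cells. None of 11 other class II genes, such as the muscle regulator hlh-1 and the Twist homologue hlh-8, had a thresholded summit, and neither did any of 7 genes of the REF-1 and Hes group or of 14 genes of the leucine zipper, PAS and remaining groups, while 11.0% of all protein-coding genes had one. With the 9 genes above, hlh-2 was thus the 1 bHLH gene of the lists with a thresholded peak. Summits shared by both replicates were found in 4 of the 11, 1 of the 7 and 7 of the 14 genes, beside 3 of the 9 proneural and E protein genes and 42.0% of all protein-coding genes. In the Notch pathway 3 of 22 genes had a thresholded summit, against 11.0% of all genes, and 13 of 22 had one shared by both replicates, against 42.0% of all genes. Those with a thresholded summit were sup-17, sel-8 and lag-1. The peak of sup-17, for an ADAM protease, lay 486 bp upstream (signal 243.0, rank 362), with its summit inside an annotated non-coding RNA gene. In sel-8, for a Mastermind-like coactivator, intronic peaks lay 6260 and 3225 bp inside the gene (signals 209.7 and 117.3, ranks 505 and 1540). In lag-1, for the CSL transcription factor, an intronic peak lay 1848 bp inside the gene (signal 137.6, rank 1145). The sup-17 summit had a CAGATG within its 100 bp window, and those of sel-8 and lag-1 had no E-box. Median window lengths were 4511 bp in the other class II genes, 4148 bp in the REF-1 and Hes group, 7357 bp in the leucine zipper and PAS group and 5372 bp in the Notch pathway. The differences between lists were not tested.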

How the data were processed

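ChIP-seq was done in 2 biological replicates of 1 group. Per the labels and the authors' notes on the files, each list is in narrowPeak format on ce11: the replicate lists were derived from the alignments of 1 replicate with 1 further file, the pooled list from both, and the thresholded list from these 3 by the irreproducible discovery rate. Which aligner, peak caller and limit were used is not given in the sources used here. Depth is unknown from such lists. The signal per region and the −log10 q-value are the authors' deposited values, and the summit is the region start plus the deposited offset. No control list was used.

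Regions of the mitochondrial genome were left out. Genes came from Ensembl release 115 on WBcel235, which is the same assembly as ce11: every region ended within its chromosome. All 9 gene symbols matched. Summits within 100 bp were the same site. Sequence came from the RefSeq copy of WBcel235. Counting used Python 3.11.15, numpy 2.4.6, pandas 2.3.3 and scipy 1.17.1, and was tested on simulated data. Regions were ranked by signal within each list. Named beyond the 9 genes were, by rule, bHLH and Notch genes with a thresholded summit and the gene whose start was nearest to a member's summit. The genes T14F9.2, dao-6, hlh-1 and hlh-8 were named after their values were seen. Members and lists were chosen with earlier results of these data known. No test between groups was possible, and alternatives in windows, matching, list depth and replicates were tried.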

Additional observations from a re-analysis of the deposited data

How the results depend on the processing

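The count of genes with a thresholded summit stayed at 1 with windows of 1500 or 5000 bp upstream, 1000 bp past the gene end, the nearest transcript start alone, the next gene as limit, the stronger 50% of the peaks, the strongest 1964 regions of either replicate alone and without summits near tRNA, snoRNA or snRNA genes. The share of all genes in these settings ran from 6.21% (stronger 50% of the peaks) to 13.8% (5000 bp upstream). The count was 0 with 500 bp upstream (6.26% of all genes), which leaves out the hlh-2 summit. With that narrow window 1 gene had a summit shared by both replicates (28.5% of all genes), and the windows held 11 pooled summits. The stronger 50% of the pooled list left 4 of the 9 genes with a summit, and 50.1% of all genes. The list of replicate 1 alone gave 5 genes (73.0% of all genes), that of replicate 2 alone 8 (71.5%). Shared summits were in 2 genes at a limit of 50 bp (33.1% of all genes), in 4 at 200 bp (48.0%), where hlh-14 was added, and in 4 with 5000 bp upstream (49.7%), where hlh-6 was added. The share of pooled summits with an E-box was 28.6% in 50 bp windows and 61.9% in 200 bp windows. A narrower window can only hold as many E-boxes or fewer, so these 2 values do not show a change in the result. The share was 33.3% in the left flank and 33.3 to 46.7% when a replicate was left out, and the cause was not tested. Of 36 alternatives in all, 27 left the value within 1.5 times the main count or within the spread of the replicates. No paired analysis was possible because both replicates belong to 1 group. Regions of low rank hold background, and depth is unknown, so a missing summit is no absence of binding.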
